A study of Mus musculus with 4 samples.

Results

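The subject is 9 genes that encode receptors for hormones acting on the testis, Fshr, Lhcgr, Esr1, Esr2, Thra, Thrb, Nr3c1, Prlr and Insr, and the question is which cell classes of the juvenile mouse testis carried their RNA. The members were found by symbol in the gene lists of the count tables, where all 9 of 9 were present among 31053 genes. The data are single-cell RNA counts of the testis region that contains the rete testis (RT) and the adjacent seminiferous tubules, from C57BL/6 mice at postnatal day 14. The 4 libraries, a pair per genotype (control and Sox17-cKO, replicates 1 and 2), held cells pooled from 3 pups apiece, so single animals cannot be separated. The Sox17-cKO mice carried SF1Cre and homozygous floxed Sox17, in which the recombinase under Nr5a1 (SF1) control acts in gonadal somatic cells. The sample labels give the controls SF1Cre alone, whereas the methods describe controls with floxed alleles and no Cre, so the presence of the recombinase in the controls is unclear. Interstitial cells freed by the first enzyme step were not carried on to capture, so the interstitial classes hold what stayed with the tubules and the RT.

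Follicle-stimulating hormone and luteinizing hormone act through the G protein-coupled receptors FSHR and LHCGR, which raise cyclic AMP. Sertoli cells are the known target of the first and Leydig cells, the steroid-producing cells between the tubules, of the second. ESR1 and ESR2 bind oestrogen, THRA and THRB bind thyroid hormone and NR3C1 binds glucocorticoid, and all of these are transcription factors that act once their ligand has entered the cell. PRLR is a cytokine receptor for prolactin that signals through JAK2 and STAT5, and INSR is the receptor tyrosine kinase for insulin. In the juvenile testis thyroid hormone is known for ending the proliferation of Sertoli cells.

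Each captured RNA molecule carried a unique molecular identifier (UMI), and a level below is the number of UMIs of a gene per 1000000 UMIs of a class (CPM) in one library. Levels were compared between classes and not between genes, because the protocol counts transcript ends. Cells with 1000 to 4500 detected genes were retained, between 5174 and 6135 per library, with 156392500 UMIs in all. Clusters were named from marker genes that included none of the 9 receptors, and the receptors were left out of the variable genes. This placed 20185 cells in 13 classes and left 2382 cells unnamed. The RT-like class held 228 cells, the Leydig-like class 226 cells and the class resembling Sertoli cells of the Sertoli valve (SV) 452 cells, while the endothelium-like class had only 72 cells (8 in control 1). In RT-like cells the 8 RT markers summed to between 4550 and 5390 CPM per library, and none of them was at 0. The 6 Leydig markers summed to between 4620 and 7050 CPM in Leydig-like cells and to between 0 and 12 CPM in RT-like cells. The 12 SV markers summed to between 577 and 1090 CPM in SV Sertoli-like cells and to between 58.1 and 71 CPM in the other Sertoli-like cells. They summed to between 1440 and 2810 CPM in RT-like, 1300 and 1930 CPM in pericyte-like and 1020 and 1380 CPM in endothelium-like cells. They thus mark the valve only among Sertoli-like cells, and the SV class was named from them. None of them was among the 10 leading genes of either cluster in that class. Sox17, the targeted gene, was at 356 and 312 CPM in RT-like cells of the 2 controls and at 45.5 and 34.6 CPM in those of the Sox17-cKO libraries, the direction that the labels give. In endothelium-like cells it was at 508 and 344 CPM against 102 and 101 CPM, from 33 and 62 against 10 and 18 UMIs. The paper, by in situ hybridization at a later age, reports vascular Sox17 as conserved in Sox17-cKO mice. The cause of the lower endothelium-like values was not tested. Because the classes came from the other genes of the same cells, a test between classes shows whether the libraries agree and is not independent of the clustering. The libraries shared between 7 and 9 barcodes per pair.

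The 2 gonadotropin receptor genes are neighbours. In GRCm38, Fshr (ENSMUSG00000032937) lies at chr17:88984952-89200675 and Lhcgr (ENSMUSG00000024107) at chr17:88716481-88791990, both on the minus strand, with 193 kb and no protein-coding gene between them. The 250 bases before their start sites are printed because these neighbours were found in different cell classes. They are RefSeq promoter sequences of GRCm38.p6 on the minus strand, in the direction of transcription, and capitals mark the matches to 3 motifs that were searched on both strands, CACGTG (an E box), AGGTCA (a core motif of nuclear receptor sites) and GGGCGG (a GC box), which do not overlap one another here. The Fshr stretch is chr17:89200676-89200925 and the Lhcgr stretch chr17:88792015-88792264.
Fshr: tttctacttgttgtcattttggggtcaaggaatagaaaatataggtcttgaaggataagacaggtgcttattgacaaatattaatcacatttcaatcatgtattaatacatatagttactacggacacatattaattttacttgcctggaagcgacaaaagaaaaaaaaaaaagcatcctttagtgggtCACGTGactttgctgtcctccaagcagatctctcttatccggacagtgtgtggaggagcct
Lhcgr: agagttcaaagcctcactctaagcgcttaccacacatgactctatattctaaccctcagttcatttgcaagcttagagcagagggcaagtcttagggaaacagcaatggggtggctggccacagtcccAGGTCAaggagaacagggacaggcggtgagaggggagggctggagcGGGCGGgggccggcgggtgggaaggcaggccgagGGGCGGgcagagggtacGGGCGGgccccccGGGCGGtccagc
The Fshr stretch had a GC content of 36.8% and 1 CACGTG, at position -61 from the start site, a motif that 6.02% of 32817 promoters of this length held. It had no match to AGGTCA or GGGCGG, which 14% and 32.7% of promoters held. The Lhcgr stretch had a GC content of 63.2%, 1 AGGTCA at -122 and 4 GGGCGG matches, and no CACGTG. These matches describe the letters only, and nothing was measured about binding. RefSeq promoters were found for 6 of the 9 receptors.

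The other receptors lie on separate chromosomes. Esr1 (ENSMUSG00000019768) is at chr10:4611593-5005614 on the plus strand, Esr2 (ENSMUSG00000021055) at chr12:76120419-76177259 on the minus strand, Thra (ENSMUSG00000058756) at chr11:98740638-98769006 on the plus strand and Thrb (ENSMUSG00000021779) at chr14:17660261-18038090 on the plus strand. Nr3c1 (ENSMUSG00000024431) is at chr18:39410545-39519421 on the minus strand, Prlr (ENSMUSG00000005268) at chr15:10177238-10349180 on the plus strand and Insr (ENSMUSG00000005534) at chr8:3122061-3279617 on the minus strand. Exons of Prlr overlap the annotated gene Gm21973 on the same strand, so counts of Prlr are uncertain where the exons are shared. Exons of Thra overlap those of Nr1d1 on the other strand only, and an effect of this on the counts of Thra was not tested.

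Fshr RNA was found in Sertoli-like cells. Its level there was 13.4, 19.5, 9.49 and 10 CPM, a mean of 13.1 ± 4.61 (SD, n = 4), from 382 UMIs. Here and below, 4 values in a row are those of the 2 controls followed by those of the 2 Sox17-cKO libraries, each in the order of replicate number. In SV Sertoli-like cells it was 12.5, 2.32, 1.8 and 5.45 CPM in the same order, from 24 UMIs, of which 17 came from control 1. The other Sertoli-like cells were higher than the SV Sertoli-like cells in all 4 libraries, yet the ranges of both classes overlapped because the SV value of control 1 stood close to the Sertoli-like value of that library. No other class exceeded a mean of 0.738 CPM, in spermatocyte-like cells, and no UMI was counted in Leydig-like, endothelium-like or pericyte-like cells. At 0.738 CPM the spermatocyte-like level was 5.63% of the Sertoli-like level, beside 7.39% (range 4.4 to 9.94%) for the 10 Sertoli markers in the same cells. The marker levels serve as a measure of Sertoli RNA in the other classes, and relative to its Sertoli-like level Fshr lay above the highest of the 10 markers in none of the 12 other classes. In RT-like and SV Sertoli-like cells the highest marker was at 104% and 152% of its Sertoli-like level. Fshr could not exceed that there, because Sertoli-like cells were its highest class. In Leydig-like cells the highest marker was at 47.3%. Of 4949 Sertoli-like cells, 7.09% had a UMI of Fshr (exact 95% interval 6.39 to 7.84%, counting error only) at a median of 4926 UMIs per cell. Differentiating spermatogonia-like cells, which should lack this receptor, gave 0.168% at a median of 8792 UMIs. With every cell thinned to 2000 UMIs, which 4456 of 4949 and 3426 of 3577 cells of these classes reached, the shares were 2.25% and 0.0356%. A further 821 UMIs of Fshr lay in barcodes with more than 4500 detected genes, which were assigned to no class.

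**Figure D1:**
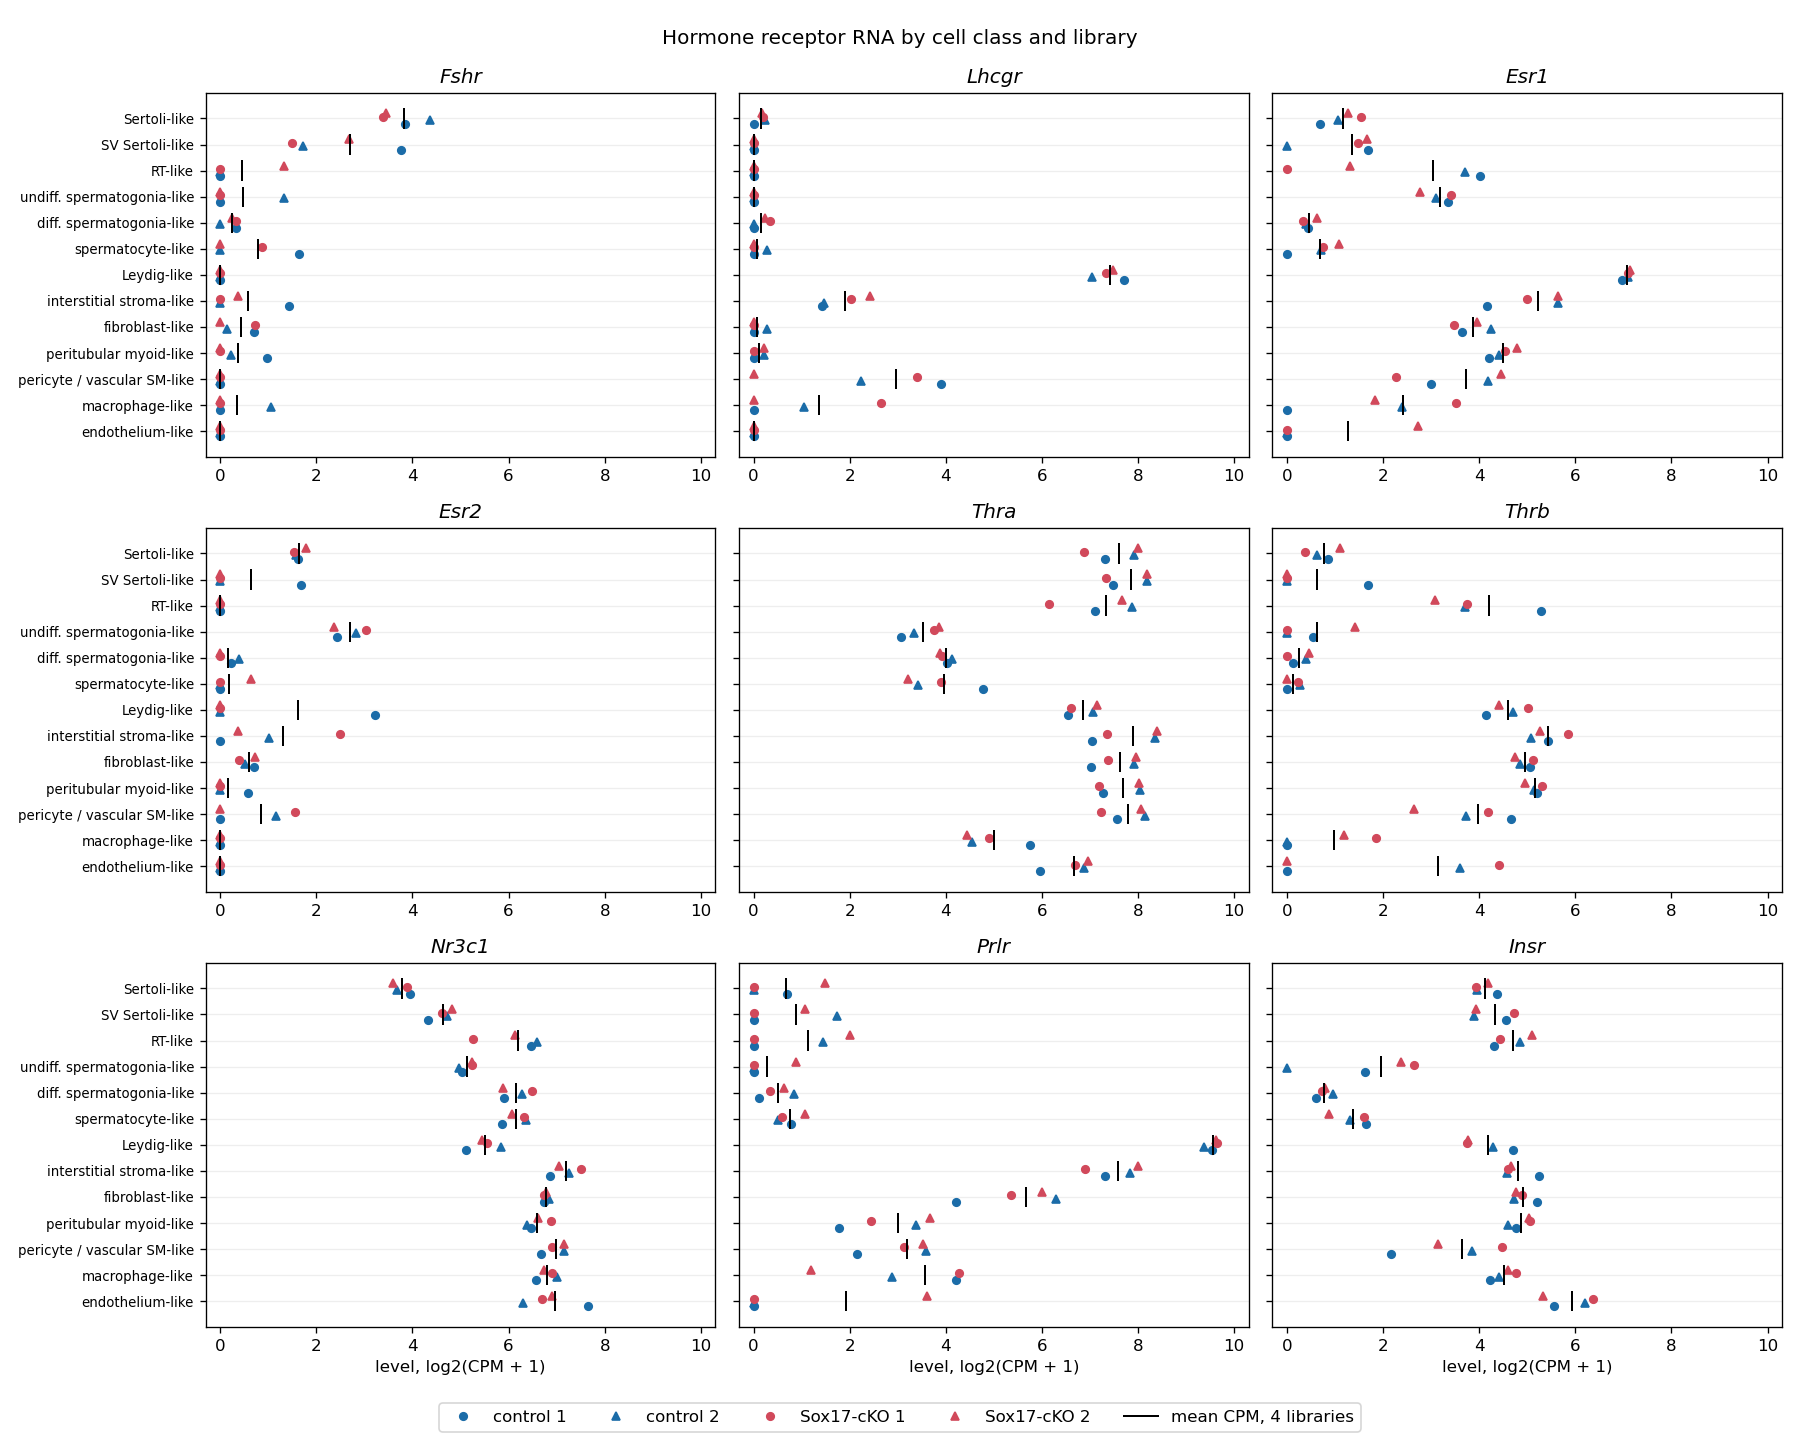
Level of each of the 9 receptor RNAs in 13 cell classes, as log2(CPM + 1) on the horizontal axis. Circles are replicate 1 and triangles replicate 2, blue for control and red for Sox17-cKO, and the black line marks the mean CPM of the 4 libraries. Fshr stood out in the 2 Sertoli-like classes, and Lhcgr, Esr1 and Prlr were highest in Leydig-like cells in all 4 libraries. Thra covered most somatic classes and was low in germ-like cells.

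Lhcgr RNA was found in Leydig-like cells, at 208, 130, 160 and 177 CPM in the 4 libraries (169 ± 32.7, n = 4). The first of these values rests on 12 cells and 25 UMIs, and the other libraries gave 134, 77 and 182 UMIs. All 4 values were above every value of every other class. Of 226 Leydig-like cells, 73.5% had a UMI (exact 95% interval 67.2 to 79.1%, median 11586.5 UMIs per cell), against 0.0839% of differentiating spermatogonia-like cells (median 8792 UMIs). After thinning to 2000 UMIs, which all Leydig-like cells reached, the shares were 24.7% and 0.0254%. No UMI of Lhcgr was counted in RT-like or SV Sertoli-like cells, and 3 UMIs over the class, the limit that a count of 0 allows, would be 1.72 and 0.919 CPM. The pericyte and vascular smooth muscle-like class came second, with 13.9, 3.68, 9.63 and 0 CPM. These values come from 12 UMIs in 10 of 297 cells. Their mean of 6.8 CPM was 4.02% of the Leydig-like level, whereas the 6 Leydig markers reached between 0 and 0.572% of their Leydig-like level in the same cells (median 0.0982%). In interstitial stroma-like cells Lhcgr was at 1.69, 1.76, 3.08 and 4.38 CPM, which is 1.62% of the Leydig-like level beside a marker range of 0.207 to 1.57%. The pericyte-like level thus lay above every Leydig marker, and the stroma-like level lay just above the highest of them.

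**Figure D2:**
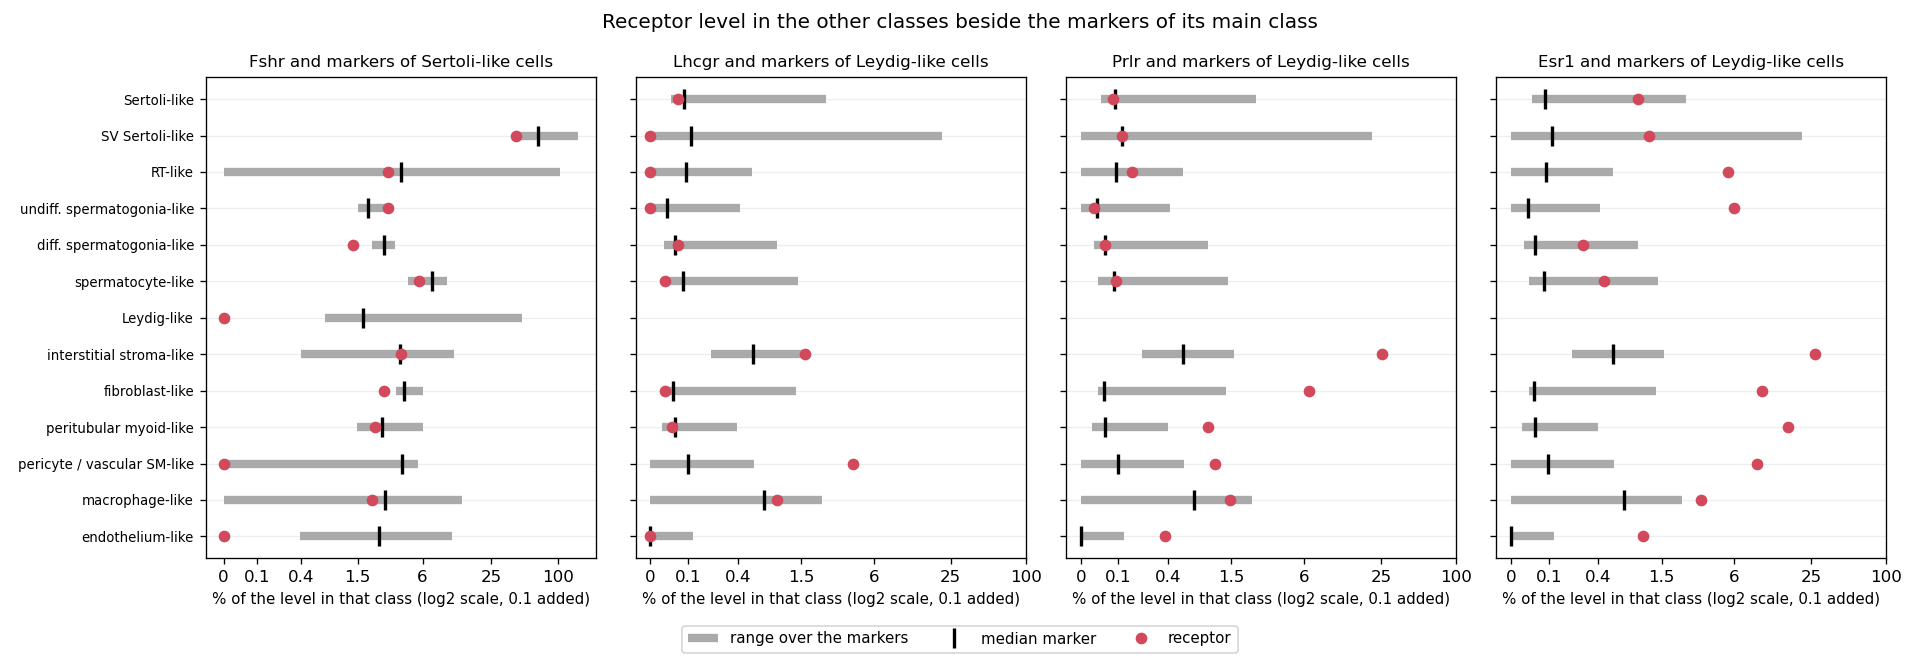
Level of a receptor in each other class, as a percentage of its level in the class named above the panel, beside the marker genes of that class measured the same way (log2 axis after adding 0.1). The grey bar is the range over the markers, the black tick their median and the red point the receptor. Fshr lay within or below the marker range in every class, though it could not exceed that range in RT-like and SV Sertoli-like cells, where it reached 104% and 152%. Lhcgr lay above the range in pericyte-like cells (4.02%) and just above it in stroma-like cells (1.62%), and Prlr and Esr1 lay above it in all 4 stromal classes.

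Esr1 and Esr2, the 2 oestrogen receptors, had different patterns. Esr1 was highest in Leydig-like cells at 125, 136, 135 and 139 CPM (134 ± 6.01, n = 4). Interstitial stroma-like cells followed at 16.9, 48.6, 30.8 and 48.7 CPM, and the Leydig-like level was 7.4, 2.8, 4.38 and 2.85 times as high in the 4 libraries. Peritubular myoid-like cells (21.7 ± 3.79 CPM), fibroblast-like cells (13.6 ± 3.48) and pericyte-like cells (12.3 ± 8.17) came next and overlapped their neighbours in this order. Of the Leydig-like cells 73.9% had a UMI of Esr1, against 0.308% of the differentiating spermatogonia-like cells, at medians of 11586.5 and 8792 UMIs (23.9% and 0.0584% after thinning). Undifferentiated spermatogonia-like cells carried Esr1 at 9.21, 7.59, 9.59 and 5.86 CPM, and differentiating spermatogonia-like cells at 0.371 ± 0.126 CPM. Sertoli-like cells had 1.25 ± 0.541 CPM. In RT-like cells the values were 15.1 and 12.1 CPM in the controls and 0 and 1.5 CPM in the Sox17-cKO libraries, from 4, 7, 0 and 1 UMIs. The control libraries lay above both Sox17-cKO libraries, but with 12 UMIs in all this gene did not pass the filter on low counts between genotypes, and without that filter its unadjusted p was 0.0075 and its adjusted p 0.381 (edgeR).

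Esr2 was sparse, with 153 UMIs in all retained cells and 384 in the barcodes above the range of detected genes. It was highest in undifferentiated spermatogonia-like cells, at 4.37, 6.08, 7.2 and 4.18 CPM (5.46 ± 1.44, n = 4), from 19, 4, 15 and 5 UMIs. Sertoli-like cells followed at 2.05, 1.99, 1.9 and 2.44 CPM, and the ranges of these 2 classes did not overlap. The undifferentiated spermatogonia-like level was 2.13, 3.06, 3.79 and 1.71 times the Sertoli-like level of the same library. A UMI of Esr2 was found in 5.53% of undifferentiated spermatogonia-like cells and in 1.21% of Sertoli-like cells, at medians of 12111 and 4926 UMIs, and after thinning in 0.915% and 0.325%. Peritubular myoid-like cells gave 0.0459% (0.0184% thinned) at a median of 6773 UMIs. No UMI was counted in 228 RT-like, 297 macrophage-like or 72 endothelium-like cells. Esr2 did not pass the filter on low counts in the fit over all classes, and the difference between its first 2 classes was not tested.

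Thra, one of the 2 thyroid hormone receptor genes, was broad. Its level ran from 238 ± 107 CPM in interstitial stroma-like cells to 101 ± 27.7 CPM in endothelium-like cells over 9 somatic classes, and each neighbour in this order overlapped the next. Stroma-like cells had 130, 327, 163 and 333 CPM, SV Sertoli-like cells 178, 290, 161 and 291 CPM, the other Sertoli-like cells 158, 240, 117 and 255 CPM and RT-like cells 136, 232, 70.3 and 203 CPM. Replicate 2 was above replicate 1 in both genotypes in 8 of the 10 classes with at least 10 UMIs in every library, with ratios from 0.369 to 2.89. The replicates also differed for other receptors. By the same rule replicate 2 was above in 4 of 4 classes for Esr1 (ratios 1.02 to 2.88). For Prlr it was above in 2 of 3 classes and below in 1 (0.897 to 4.41). It was below in 3 of 3 classes for Thrb (0.656 to 0.945). For Nr3c1 it was above in 3 and below in 3 of 11 classes. Replicate 1 was counted with Cell Ranger 6.0.2 and replicate 2 with 6.1.2 in both genotypes, so version and replicate cannot be told apart. For Thra, interstitial stroma-like and SV Sertoli-like cells exchanged the first place in 5 alternatives. Macrophage-like cells were lower, at 31.2 ± 14.9 CPM and without overlap with endothelium-like cells, and the 3 germ-like classes lay at 10.6 to 15 CPM. A UMI of Thra was found in 70.6% of SV Sertoli-like, 56.4% of other Sertoli-like and 64% of RT-like cells, against 11.5% of differentiating spermatogonia-like cells (medians of 6876, 4926, 7738.5 and 8792 UMIs). Thinned to 2000 UMIs, the shares were 35.7%, 30%, 28.4% and 3.03%.

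Thrb was narrower and highest in the stromal classes. It reached 42.4 ± 10.4 CPM in interstitial stroma-like cells, 34.6 ± 3.58 in peritubular myoid-like cells and 29.9 ± 3.57 in fibroblast-like cells, 3 classes whose neighbours overlapped. Leydig-like cells had 16.7, 25.2, 31.3 and 20.4 CPM. RT-like cells had 37.8, 12.1, 12.4 and 7.52 CPM from 25 UMIs, of which 10 came from control 1. Sertoli-like cells had 0.82, 0.543, 0.292 and 1.16 CPM and SV Sertoli-like cells 2.2, 0, 0 and 0 CPM, from 3 UMIs. The RT-like and both Sertoli-like classes thus carried Thra, whereas Thrb was at most 2.2 CPM in any library of the Sertoli-like and SV Sertoli-like cells. Thrb UMIs were in 8.77% of RT-like cells and in 0.424% of Sertoli-like cells at medians of 7738.5 and 4926 UMIs (3.6% and 0.131% after thinning).

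Nr3c1, the glucocorticoid receptor, was found in every class, with Sertoli-like cells at the bottom. Their level was 14.4, 11.8, 13.7 and 11.1 CPM (12.7 ± 1.57, n = 4). SV Sertoli-like cells were the next lowest at 19.1, 25.5, 23.5 and 27.2 CPM, and undifferentiated spermatogonia-like cells followed at 34 ± 3.4 CPM. These 3 classes did not overlap with one another. The highest levels were in interstitial stroma-like (145 ± 28), pericyte-like (126 ± 19.8), endothelium-like (124 ± 53) and macrophage-like cells (111 ± 14.5), which overlapped. RT-like cells had 87, 95.2, 37.2 and 69.2 CPM, so both controls were above both Sox17-cKO libraries. Among germ-like cells, differentiating spermatogonia-like (70.5 ± 14.5 CPM) and spermatocyte-like cells (70.7 ± 11.1) were above undifferentiated spermatogonia-like cells, without overlap. A UMI was found in 6.99% of Sertoli-like, 13.5% of SV Sertoli-like and 39.5% of RT-like cells (medians of 4926, 6876 and 7738.5 UMIs), and after thinning in 2.36%, 4.02% and 14.7%.

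Prlr RNA was found in Leydig-like cells and the stroma. Leydig-like cells had 742, 666, 800 and 792 CPM (750 ± 61.6, n = 4), and 94.7% of them had a UMI, 66.4% after thinning. Interstitial stroma-like cells had 159, 228, 118 and 254 CPM, and the Leydig-like level was 4.67, 2.92, 6.78 and 3.12 times as high. Fibroblast-like cells came next at 17.5, 77.2, 40 and 63.5 CPM. The first 2 classes did not overlap with each other, and neither did stroma-like and fibroblast-like cells. UMIs were found in 49.9% of stroma-like cells (median 4840 UMIs, 30.3% thinned), against 0.242% of Sertoli-like cells (median 4926 UMIs, 0.124% thinned). RT-like cells held 3 UMIs and SV Sertoli-like cells 2 UMIs of Prlr in all.

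Insr was found in all somatic classes, at means from 11.5 to 59.8 CPM. Endothelium-like cells led with 46.2, 72.1, 81.6 and 39.3 CPM (59.8 ± 20.3, n = 4) from 31 UMIs, and all 4 values were above those of every other class. Fibroblast-like (29.1 ± 4.6), peritubular myoid-like (28.5 ± 4.39), stroma-like (26.8 ± 6.89) and RT-like cells (25.1 ± 6.54) overlapped, and so did macrophage-like, SV Sertoli-like, Leydig-like and Sertoli-like cells at 21.8 to 16.5 CPM. Pericyte-like cells were the lowest somatic class, at 3.47, 13.5, 21.2 and 7.89 CPM from 26 UMIs, and overlapped Sertoli-like cells. In RT-like cells the 4 libraries gave 18.9, 27.7, 20.7 and 33.1 CPM. The RT-like level was 42% of the endothelium-like level, whereas the 8 endothelium markers had a median of 0.261% (range 0.0635 to 66.7%) of their endothelium-like level in RT-like cells. The germ-like classes were lowest, from 0.719 to 2.88 CPM. A UMI was found in 31.9% of endothelium-like, 18.4% of RT-like and 0.559% of differentiating spermatogonia-like cells (medians of 6423, 7738.5 and 8792 UMIs), and after thinning in 12.4%, 5.78% and 0.172%.

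UMI sums of each class and library were then compared in one edgeR quasi-likelihood fit with the library as a block, each class against the mean of the other classes, with Benjamini-Hochberg adjustment over 12987 genes and a threshold of 0.05. The mean of the other classes is taken on the log scale, so a receptor that is very high in 1 class can be called higher in a class whose CPM is below the plain average of the others. Classes without a UMI lower that mean further, which was so for Fshr (3 classes) and Lhcgr (4 classes). The shares of all genes include 2245 genes without a UMI in some class. Of the 9 receptors 8 were tested in 13 classes, 104 tests, of which 42 came out higher and 25 lower. Interstitial stroma-like cells were higher for 7 of 8 receptors (all but Fshr), where 29.3% of all genes were higher. Lhcgr was called there at 2.73 CPM against a plain average of 14.8 CPM in the other classes. Its call in pericyte-like cells, given below, was at 6.8 against 14.5 CPM and rests on 12 UMIs. Fibroblast-like and peritubular myoid-like cells were each higher for the same 6, Esr1, Thra, Thrb, Nr3c1, Prlr and Insr (32.3% and 30.6% of all genes). Some of these calls also lay below the plain average of the other classes. Prlr was at 49.6 against 81.1 CPM in fibroblast-like and at 7.02 against 84.6 CPM in peritubular myoid-like cells. Esr1 was at 13.6 against 19.1 CPM in fibroblast-like cells. Pericyte-like cells were higher for 5, Lhcgr (adjusted p = 3.41e-06), Esr1, Thra, Thrb and Nr3c1 (22.3% of all genes), and Leydig-like cells for 5, Lhcgr (1.39e-28), Prlr (5.07e-39), Esr1 (1.84e-28), Thra (0.01) and Thrb (1.48e-12), where 25.4% of all genes were higher. Beside the plain average, Esr1 in pericyte-like cells was at 12.3 against 19.2 CPM and Thra in Leydig-like cells at 115 against 135 CPM. In Sertoli-like cells 3 receptors were higher, Fshr (2.45e-17), Thra (9.17e-12) and Insr (0.00243), beside 35.1% of all genes. Insr was there at 16.5 CPM against a plain average of 20.3 CPM. SV Sertoli-like cells were higher for Fshr (2.06e-06) and Thra (2.9e-10), beside 25% of all genes. Fshr did not pass the filter without control 1, which held 17 of its 24 UMIs in SV Sertoli-like cells, and without both that library and the filter it was still higher there (log2 3.84, SE 0.91, adjusted p = 0.000198). RT-like cells were higher for Insr (0.000844), Thra (0.00067) and Thrb (6.04e-05), beside 23.8% of all genes. Macrophage-like and endothelium-like cells were each higher for Insr and Nr3c1, beside 23.8% and 14.4% of all genes. Germ-like cells had fewer such calls. In this fit undifferentiated spermatogonia-like cells were higher for Esr1 alone (log2 0.75, SE 0.28, adjusted p = 0.0153, 40.8% of all genes; 8.06 CPM against a plain average of 19.5 CPM in the other classes), and differentiating spermatogonia-like and spermatocyte-like cells for 0 of 8 receptors (44% and 41.4% of all genes).

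Of the 42 higher calls, 8 were lost in at least 1 alternative. The Fshr calls could not be followed without control 1 or below 10% mitochondrial UMIs, where the filter removed the gene. In the added fits that also dropped the filter, its log2 difference was 5.92 and 5.38 in Sertoli-like cells and 3.84 and 3.22 in SV Sertoli-like cells. Esr1 in undifferentiated spermatogonia-like cells was lost without control 1 (0.39, adjusted p = 0.327) and without Sox17-cKO 1 (0.57, adjusted p = 0.12), and Esr1 in pericyte-like cells without control 2 (0.94, adjusted p = 0.243) and without Sox17-cKO 2 (1.52, adjusted p = 0.0551). Thra in Leydig-like cells (log2 0.61) was lost without control 2 (0.59, adjusted p = 0.0583), Sox17-cKO 1 (0.59, adjusted p = 0.0676) or Sox17-cKO 2 (0.55, adjusted p = 0.109), with little change in the difference. Thra in RT-like cells (log2 0.8) was lost without control 2 (0.57, adjusted p = 0.0691). Nr3c1 in endothelium-like cells was lost in 5 alternatives, with the highest adjusted p without control 1 (0.27, adjusted p = 0.419), and also without Sox17-cKO 2 (0.53, adjusted p = 0.19). Insr in RT-like cells was lost without Sox17-cKO 2 (0.76, adjusted p = 0.0766), Insr in Sertoli-like cells below 10% mitochondrial UMIs (-0.17, adjusted p = 0.575) and Prlr in peritubular myoid-like cells with DESeq2 (0.8, adjusted p = 0.0749).

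A log-scale mean over classes has no lower bound for a gene without a UMI in some class, and then no other class can be called lower. This was so for Fshr (0 UMIs in 3 classes) and Lhcgr (0 UMIs in 4 classes), so the 25 lower calls concern the other 6 receptors, beside 10742 genes with a UMI in every class. Sertoli-like and SV Sertoli-like cells were each lower for the same 4 of 6, Nr3c1, Esr1, Thrb and Prlr, where 33.5% and 25.9% of these genes were lower. Differentiating spermatogonia-like and spermatocyte-like cells were lower for the same 5, Esr1, Thra, Thrb, Prlr and Insr (36.7% and 40.6% of genes), and undifferentiated spermatogonia-like cells for 5, Thra, Thrb, Nr3c1, Prlr and Insr (35% of genes). Leydig-like cells were lower for Nr3c1 (21.4% of genes) and macrophage-like cells for Thra (26.2%). None of the 6 was lower in RT-like, endothelium-like, pericyte-like, stroma-like, peritubular myoid-like or fibroblast-like cells, where 18.7%, 11.6%, 16.8%, 24.1%, 29.8% and 30.6% of genes were. In SV Sertoli-like cells the Thrb call was lost without control 2 (adjusted p = 0.0584), Sox17-cKO 1 (0.0725) or Sox17-cKO 2 (0.0825), the Esr1 call without control 2 (0.0575) and the Prlr call below 10% mitochondrial UMIs (0.0612). The Nr3c1 call in Leydig-like cells was lost without Sox17-cKO 1 (0.0539) or Sox17-cKO 2 (0.163) and in 3 other alternatives. Lower calls of Esr1, Thrb and Prlr could not be tested in the alternatives that left a class without a UMI of them. With so few genes the counts describe the receptors and are set beside the shares of all genes without a test of the list.

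For Fshr and Lhcgr, the 3 genes most like them across the 52 sums of class and library included markers from which the classes were named. These were Wfdc10, Cst9 and Amh for Sertoli-like cells and Hsd3b1 and Insl3 for Leydig-like cells. The likeness therefore restates where both receptors were highest and is not separate evidence. As Pearson r of log2(CPM + 1), and without a p because sums of 1 library share their depth, Fshr was closest to Wfdc10 (0.877), Cst9 (0.853) and the Sertoli hormone gene Amh (0.845). Lhcgr was closest to Hao2 (0.899), the steroid enzyme gene Hsd3b1 (0.898) and Insl3 (0.884), which encodes a peptide hormone of Leydig cells. Prlr was closest to Serpina3c (0.929), C2 (0.887) and Tspan11 (0.859), and Esr1 to Osr2 (0.86), Serpina3c (0.852) and Vgll3 (0.833), so these 2 receptors shared a neighbour. Thra was closest to Cd81 (0.926), Rab12 (0.924) and Sparc (0.914), Thrb to Gria3 (0.929), Ddr2 (0.905) and Ccdc8 (0.895), Nr3c1 to Nucb1 (0.851), Selenow (0.848) and Card19 (0.84), and Insr to Irf2 (0.902), Ddx58 (0.895) and Timp2 (0.893). For the sparse Esr2 the best values were lower, 0.686 for Rhebl1 and 0.557 and 0.556 for Phax and Hbp1. Among the receptors themselves, Esr1 and Prlr had an r of 0.81, Lhcgr and Prlr 0.74, Thra and Insr 0.72, and Fshr and Nr3c1 -0.74. Sertoli-like cells were highest for Fshr and lowest for Nr3c1.

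The RT and the tubules are continuous, and RT-like and Sertoli-like cells were compared within the same fit. Of 8 receptors, 3 were higher in RT-like cells and 1 was lower, where 50.8% of all genes differed in either direction. Thrb was higher by 4.08 on the log2 scale (SE 0.52, adjusted p = 2.37e-09), Nr3c1 by 2.31 (SE 0.2, adjusted p = 1.24e-14) and Esr1 by 2.15 (SE 0.64, adjusted p = 0.00419). The Thrb difference was 3.42 without control 1, the library with 10 of its 25 UMIs in RT-like cells, and 4.71 without Sox17-cKO 2, and passed in both. The Esr1 call was lost without control 1 (1.36, adjusted p = 0.104) and without control 2 (1.25, adjusted p = 0.279), the libraries that hold 11 of its 12 UMIs in RT-like cells. Fshr was lower (adjusted p = 0.000155), with 1 UMI in RT-like cells against 382 in Sertoli-like cells, a pooled level of 4.48% of that of Sertoli-like cells (exact counting interval 0.113 to 25.1%). Without control 1 and below 10% mitochondrial UMIs the filter removed Fshr, and without the filter as well it was lower in both (-4.43, adjusted p = 5.94e-06, and -4.32, adjusted p = 2.41e-05). Beside the pooled level, the 10 Sertoli markers had a median of 3.78% of their Sertoli-like level in RT-like cells. Thra (-0.44, SE 0.23, adjusted p = 0.111) and Insr (0.52, SE 0.26, adjusted p = 0.0932) did not pass the threshold. Thra passed as lower in 4 of the 11 alternatives, without the filter on low counts (adjusted p = 0.00271), without control 1 (0.0116), without control 2 (0.0267) and without integration (0.0194). Insr passed as higher in cells with less than 10% mitochondrial UMIs (1.15, adjusted p = 0.00347) and by DESeq2 (0.68, adjusted p = 0.0296).

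**Figure D3:**
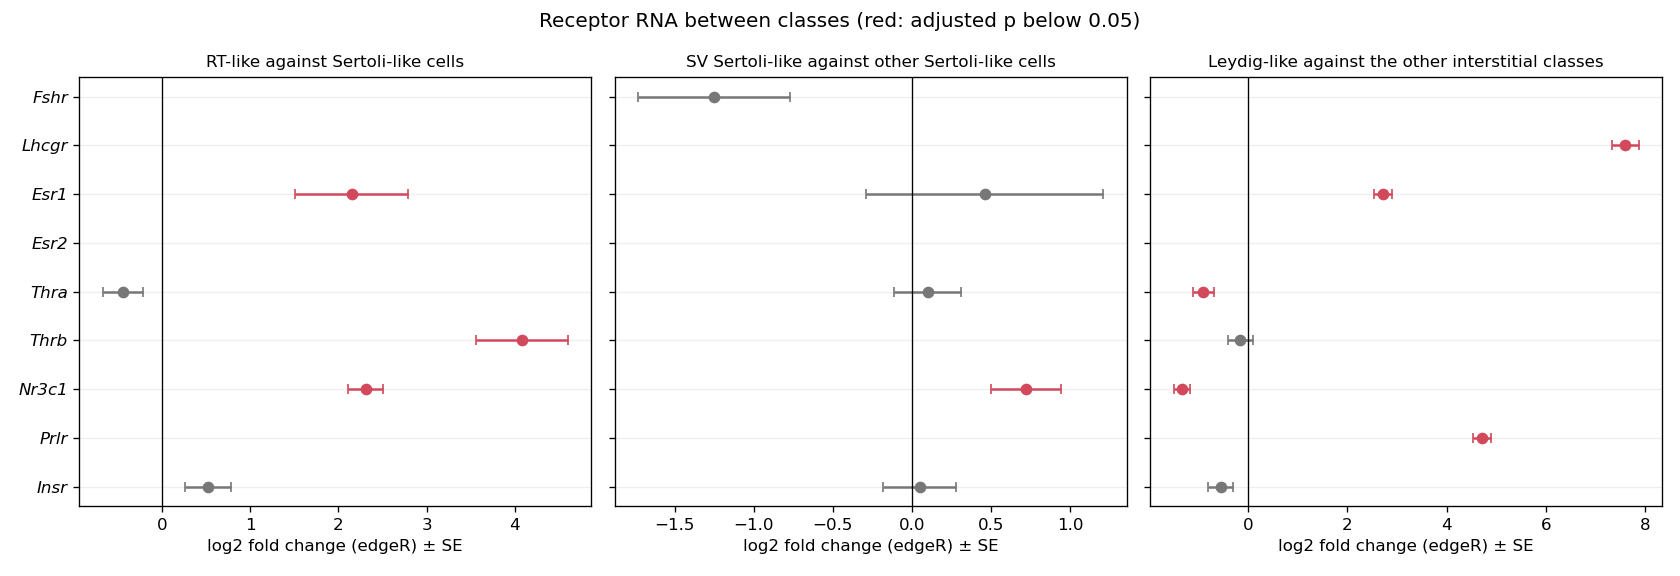
Log2 fold change of receptor RNA between cell classes (edgeR, horizontal axis) with its standard error. Red points passed an adjusted p of 0.05 and grey points did not. Receptors with at most 3 UMIs in the class named first are left out, and Esr2 was not tested. Thrb, Nr3c1 and Esr1 lay to the right in RT-like cells, Nr3c1 alone passed in SV Sertoli-like cells, and Lhcgr, Prlr and Esr1 lay to the right in Leydig-like cells.

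Between SV Sertoli-like and other Sertoli-like cells, 1 of 8 receptors passed the threshold, beside 18.5% of all genes. Nr3c1 was higher in SV Sertoli-like cells by 0.72 (SE 0.22, adjusted p = 0.0136), with all 4 SV values above all 4 values of the other Sertoli-like cells. This call was lost without control 2 (0.56, adjusted p = 0.092) and without Sox17-cKO 2 (0.62, adjusted p = 0.176), and in cells with less than 10% mitochondrial UMIs (0.61, adjusted p = 0.129) and without integration (0.47, adjusted p = 0.118), with the same direction throughout. Fshr was lower by a log2 change of -1.25 (SE 0.48) but missed the threshold at an adjusted p of 0.0609, and it passed without the filter on low counts (-1.29, adjusted p = 0.0104) and without integration (-1.24, adjusted p = 0.0385). Where the filter removed it, without control 1 and below 10% mitochondrial UMIs, it passed once the filter was dropped too (-1.92, adjusted p = 0.00962, and -1.99, adjusted p = 0.00961). The 8 RT markers summed to between 9.54 and 34.8 CPM in SV Sertoli-like cells and to between 2.77 and 7.05 CPM in the other Sertoli-like cells, with 1 of 8 at 0 in the first, and their part in the Nr3c1 difference was not tested. Thra differed by 0.1 (SE 0.21) and Insr by 0.05 (SE 0.23).

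Leydig-like cells were compared with the mean of the 4 other interstitial classes, the peritubular myoid-like, pericyte-like, fibroblast-like and stroma-like cells. Here 3 receptors were higher and 2 lower of 8 (Fshr, without a UMI in Leydig-like or pericyte-like cells, could not be called), beside 39.3% of all genes in either direction. Lhcgr was at 169 against 2.41 CPM (log2 7.6, SE 0.27, adjusted p = 3.33e-24), Prlr at 750 against 63.6 CPM (4.72, SE 0.18, adjusted p = 3.61e-28) and Esr1 at 134 against 20.9 CPM (2.71, SE 0.18, adjusted p = 6.6e-18). Nr3c1 was lower, with a log2 change of -1.34 (SE 0.16, adjusted p = 7.62e-10), and so was Thra at -0.9 (SE 0.21, adjusted p = 0.000403). Thrb (-0.16, SE 0.25) and Insr (-0.55, SE 0.25, adjusted p = 0.0829) did not pass, though Insr passed as lower without control 1 (-0.68, adjusted p = 0.0284) and without integration (-0.6, adjusted p = 0.0461).

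Genes that supply the ligands or carry the signals of these receptors were followed in 6 lists of 82 genes, of which 71 were tested. In the RT-like against Sertoli-like comparison 48 of the 71 passed (67.6%, beside 50.8% of all genes), where 25.2% of all genes were higher and 25.6% lower. Here 6 of 8 genes of the prolactin signal path were higher and 0 lower, with a median log2 difference of 0.85 beside -0.08 over all genes. These included Socs3 (5.58, SE 0.34, 644 against 12.8 CPM), which encodes an inhibitor of JAK signalling that many cytokines induce, and Ghr (4.85, SE 0.52), the growth hormone receptor, while Prlr itself was near 0 in both classes. Of 18 insulin path genes, 7 were higher, among them the adaptor genes Irs1 (5.01, SE 0.35, 37.9 against 1.01 CPM), Irs2 (1.55, SE 0.2) and Pik3r1 (3.83, SE 0.24), and 5 were lower (median 0.36). Of 9 glucocorticoid genes tested, 5 were higher and 3 lower (median 0.41). Dusp1, a phosphatase gene that glucocorticoid can induce, was at 282 against 5.02 CPM (5.45, SE 0.31), and Fkbp4, a co-chaperone gene of steroid receptors, was at 186 against 536 CPM (-1.74, SE 0.13).

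In the same comparison 3 of 8 oestrogen genes tested were higher and 2 lower (median -0.01). Greb1, a gene known for its response to oestrogen, was at 117, 135, 132 and 185 CPM in RT-like cells and at 16.5, 11.4, 10.1 and 14.7 CPM in Sertoli-like cells (3.27, SE 0.26, adjusted p = 7.84e-15). Sult1e1, which encodes the oestrogen sulfotransferase, was at 7.56, 12.1, 414 and 152 CPM in RT-like cells, low in the controls and high in the Sox17-cKO libraries, and at most 0.292 CPM in Sertoli-like cells. Hsd17b1, an enzyme of oestradiol synthesis, was at 1.89 against 21.2 CPM. Of 11 thyroid hormone genes tested, 2 were higher and 5 lower (median -0.75). Thrsp, a gene known to respond to thyroid hormone in liver, was at 85.8 against 0.33 CPM (7.49, SE 0.46), and Klf9 at 58.7 against 140 CPM (-1.42, SE 0.18). Of 17 gonadotropin path genes, 4 were higher and 6 lower (median -0.12). The phosphodiesterase genes Pde4d (1.03 against 48.6 CPM) and Pde8b (2.32 against 31.3 CPM) were low in RT-like cells, where Prkacb, a catalytic subunit of protein kinase A, was higher (140 against 36.9 CPM, log2 1.7, SE 0.16).

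**Figure D4:**
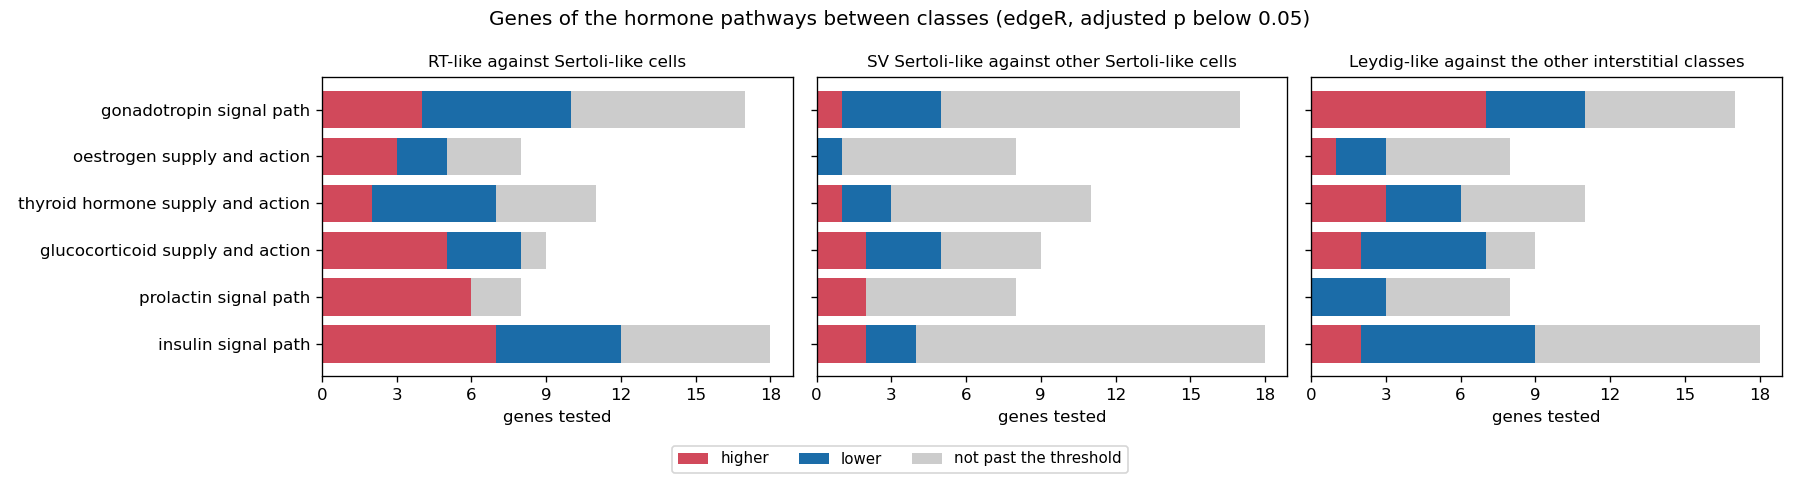
Number of genes of each hormone pathway (horizontal axis) that were higher (red), lower (blue) or not past the threshold (grey) in the first class of each comparison, by edgeR at an adjusted p of 0.05. In RT-like cells 6 of 8 prolactin path genes were higher and none lower, beside 25.2% and 25.6% of all genes. Prlr itself had 3 UMIs in that class. In Leydig-like cells 7 of 17 gonadotropin path genes were higher and 4 lower, beside 18.9% and 20.4% of all genes.

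In SV Sertoli-like against other Sertoli-like cells 20 of the 71 list genes passed (28.2%, beside 18.5% of all genes), where 7.55% of all genes were higher and 10.9% lower. Of 8 prolactin path genes 2 were higher and 0 lower (median 0.59 beside -0.13 over all genes). Socs3 was at 43.3, 216, 99.3 and 279 CPM in SV Sertoli-like cells and at 6.36, 22.1, 2.92 and 19.9 CPM in the other Sertoli-like cells (3.45, SE 0.33, adjusted p = 8.26e-12), and Jak2 was higher by 0.82 (SE 0.23). Of 17 gonadotropin path genes 1 was higher and 4 were lower (median -0.22), among them Pde4d (-0.98, SE 0.21) and Prkaca (-0.52, SE 0.13). The glucocorticoid list gave 2 higher and 3 lower (median -0.16), with Dusp1 at 18.5 against 5.02 CPM (1.73, SE 0.44), higher in 3 of 4 libraries. For thyroid hormone 1 was higher, the transporter gene Slc16a10 (1.64, SE 0.42, 7.1 against 1.84 CPM), and 2 were lower (median 0.18). The insulin list gave 2 higher, Irs2 (0.69, SE 0.2) and Pik3r1 (1.08, SE 0.34, higher in 3 of 4 libraries), and 2 lower (median -0.04), and the oestrogen list 0 higher and 1 lower, the coactivator gene Ncoa2 (median -0.37). The 20 became 13 in cells with less than 10% mitochondrial UMIs, 12 without Sox17-cKO 1 and 6 without Sox17-cKO 2.

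In Leydig-like against other interstitial cells 39 of the 71 list genes passed (54.9%, beside 39.3% of all genes), where 18.9% of all genes were higher and 20.4% lower. Of 17 gonadotropin path genes 7 were higher and 4 lower (median 0.26 beside -0.1 over all genes). Prkar2b, a regulatory subunit of protein kinase A, was at 509, 213, 171 and 388 CPM against 31.7, 21.4, 23.7 and 33.9 CPM (3.67, SE 0.17, adjusted p = 1.64e-24). The phosphodiesterase genes Pde8a (2.59, SE 0.27) and Pde8b (3.15, SE 0.44), known for limiting steroid output in Leydig cells, were higher, and Pde4b was lower (-3.08, SE 0.46). The other lists had more genes lower than higher or equal numbers. Prolactin path genes were higher in 0 and lower in 3 of 8 (median -0.49), with Socs2 at 10.9 against 64.5 CPM (-2.18, SE 0.36), although Prlr was highest in this class. Insulin path genes were higher in 2 and lower in 7 of 18 (median -0.33), glucocorticoid genes in 2 and 5 of 9 (median -0.89), oestrogen genes in 1 and 2 of 8 (median -0.04) and thyroid hormone genes in 3 and 3 of 11 (median -0.27). Hsd11b2, which inactivates glucocorticoid, had no UMI in Leydig-like cells, where 3 UMIs would be 1.13 CPM, against 7.79 CPM in the other interstitial cells (adjusted p = 0.000102). Thrsp was at 21.6 against 0.914 CPM (5.17, SE 0.45).

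The genotypes were compared within each class, 2 libraries against 2, by edgeR without a block. No receptor passed the threshold in any of 53 tests of a receptor in a class, and 1 was at an unadjusted p under 0.05, while DESeq2 gave 0 calls and 0 at that level. Over all genes the percentage called was 0% in every class but RT-like cells, where it was 0.0882% (6 of 6799 genes), so few differences of any kind passed in these 4 libraries. The one receptor was Fshr in Sertoli-like cells, at 13.4 and 19.5 CPM in the controls and 9.49 and 10 CPM in the Sox17-cKO libraries (-0.89, SE 0.35, adjusted p = 1 by edgeR). Both Sox17-cKO libraries were below both controls, and the difference did not hold after adjustment. With the replicate block in edgeR its unadjusted p was 0.00342 and its adjusted p 0.386. In those blocked fits Nr3c1 in RT-like cells (unadjusted p = 0.0265, adjusted 0.28) and Thra in spermatocyte-like cells (0.0251, adjusted 0.998) were also under 0.05 before adjustment. In RT-like cells 3 receptors could be tested. Nr3c1 was at 87 and 95.2 CPM in controls and 37.2 and 69.2 CPM in Sox17-cKO (-0.73, SE 0.37, adjusted p = 0.926 by edgeR), Thra changed by -0.41 (SE 0.45) and Insr by 0.2 (SE 0.49). In Leydig-like cells the changes were 0.06 for Lhcgr (SE 0.39), 0.16 for Prlr (SE 0.36) and 0.04 for Esr1 (SE 0.37). A receptor change between genotypes was thus not detectable with these libraries, which does not show that it is absent. A test of whether the genotype change differed between classes called 0 of 8 receptors, with 0 at an unadjusted p under 0.05 by edgeR and 0 calls by DESeq2, and 0.0077% of all genes. An exact permutation test of 2 libraries against 2 cannot give a p below 0.333.

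**Figure D5:**
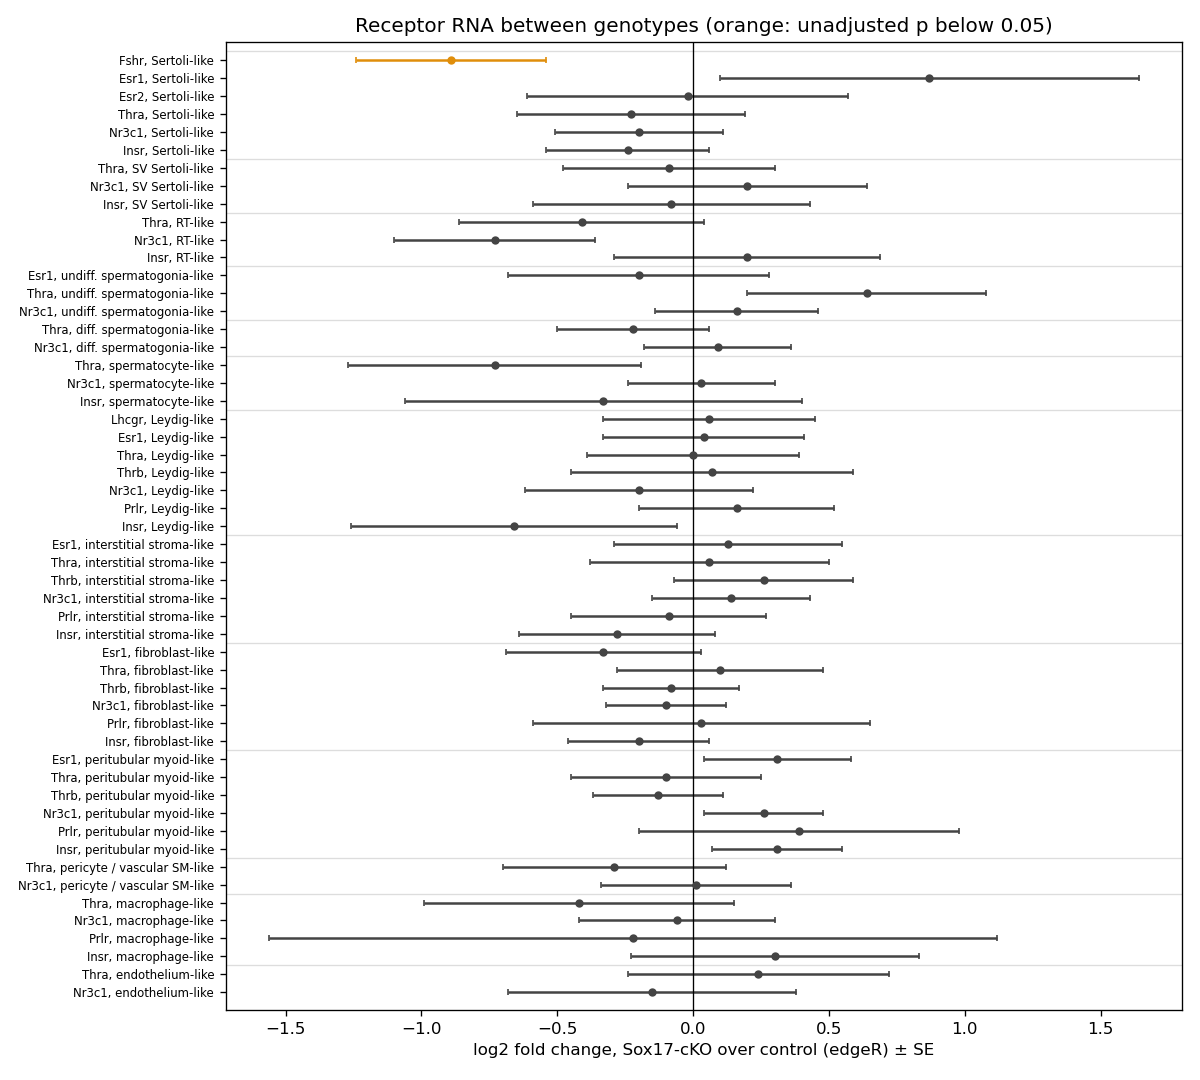
Log2 fold change of Sox17-cKO over control (edgeR, horizontal axis) with its standard error for the 53 pairs of receptor and class that passed the filter on low counts. Orange marks an unadjusted p under 0.05, which Fshr in Sertoli-like cells alone reached, and no pair passed after adjustment.

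Of the pathway lists, 0 of 706 tests of a gene in a class passed between genotypes, with 12 at an unadjusted p under 0.05 by edgeR and 1 call by DESeq2. The smallest adjusted p was that of Sult1e1 in RT-like cells, which was named after its values were seen because it came close to the threshold. The enzyme transfers sulfate to oestrogens and so makes them inactive at their receptors. Its level was 7.56 and 12.1 CPM in the controls and 414 and 152 CPM in the Sox17-cKO libraries, from 2, 7, 100 and 101 UMIs (log2 4.63, SE 0.64, adjusted p = 0.0507 by edgeR). Both Sox17-cKO libraries were above both controls, and 9 of 12 alternatives put the adjusted p under 0.05. DESeq2 gave 2.74e-07 and the replicate block 4.41e-28, with a range of 4.41e-28 to 0.114 over all 12. The fits without the filter, with the block or with a library left out called more genes of any kind. Over all genes 153 were called without the filter and 344 with the block, against 6 in the main fits. DESeq2 called 25, the fit below 10% mitochondrial UMIs 16 and the fit with receptors kept among the variable genes 9. A pass in any of these settings therefore carries little weight. Where Sult1e1 did not pass, the numbers were 4 without integration, 4 without the highest Scrublet scores and 6 at resolution 0.8. The log2 change was 3.78 without Sox17-cKO 1 and 5.22 without Sox17-cKO 2. A UMI was found in 1 of 36 and 6 of 73 RT-like cells of the controls and in 8 of 33 and 24 of 86 of the Sox17-cKO libraries, with up to 26 UMIs in one cell, so most RT-like cells of each library had no UMI of it. Fibroblast-like cells were the only other class with more than 3 UMIs of Sult1e1, at 0.637, 16.1, 10.6 and 1.93 CPM (log2 change -0.73, SE 1.16, adjusted p = 1 by edgeR), and the test of a difference between classes in the Sox17-cKO change gave an adjusted p of 1. The next 2 genes in order, likewise named after their values were seen, were also in RT-like cells. Sgk1, a kinase gene that glucocorticoid can induce, was at 45.4, 55.4, 120 and 307 CPM (2.07, SE 0.46, adjusted p = 0.266), and Thrsp at 106, 151, 57.9 and 28.6 CPM (-1.76, SE 0.42, adjusted p = 0.304 by edgeR). In both the genotypes did not overlap, and neither passed the threshold in the fit without a block. Each passed in 3 of 12 alternatives, all of which called more genes of any kind. These were without the filter on low counts (adjusted p = 7.75e-05 for Sgk1 and 0.00638 for Thrsp, edgeR), with the replicate number as a block (5.04e-11 and 1.8e-06) and without Sox17-cKO 1 (log2 2.53 and -2.23). Neither passed in the other 9, DESeq2 among them.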

How the data were processed

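The 4 count tables, as deposited, hold whole-number UMI counts per gene and barcode. The authors made them with Cell Ranger on mm10 (GRCm38), version 6.0.2 for replicate 1 and 6.1.2 for replicate 2 per the file headers, and the processing notes also name STAR. The tables that join several libraries were not used here. The members and lists were chosen with earlier results of these data known.

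Barcodes with 1000 to 4500 detected genes were retained (22567 of 46001, with 15606 below and 7828 above); the mitochondrial limit of the study was not applied, and the median mitochondrial share per library was between 5.45 and 8.83%. The libraries had 89969877 to 107203219 UMIs, and 33649565 to 42011650 in retained cells. Cells were integrated and clustered with Seurat 5.3.0 (R 4.3.3; 2000 variable genes without the 9 receptors, 20 components, resolution 0.4), and clusters were named from marker lists. SV Sertoli-like cells came from a second clustering of Sertoli-like cells at resolution 0.8, chosen after seeing the data. Scrublet (Scanpy 1.11.5) called 0 to 3% of barcodes doublets, 0 in both replicate 1 libraries, so its calls were not used and doublets were kept.

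UMI counts were summed per class and library and tested with edgeR 4.0.16 (quasi-likelihood test, TMM, filterByExpr, Benjamini-Hochberg adjustment over all genes, two-sided, threshold 0.05), with DESeq2 1.42.0 as an alternative. The scripts were tested on simulated data. The genotype fits had no block. Each library pooled 3 pups, so the p-values of the genotype fits measure the spread between pools. The fit over classes took out library differences as a block. Its p-values measure how class differences vary between libraries, which are pools, with the spread shared over the classes. They do not measure the overall spread between pools, which the block took out, or the spread between animals. Intervals and the limit of 3 counts cover counting error only. The rule named list genes that passed between genotypes (there were none, and Sult1e1, Sgk1 and Thrsp were named after their values were seen) and, in the 3 class comparisons, genes from the up to 4 per list with the smallest adjusted p. Alternatives were DESeq2, no filter, each library left out, cells below 10% mitochondrial UMIs, the highest Scrublet scores removed, resolution 0.8, no integration, receptors kept among the variable genes, mitochondrial UMIs left out of the total, and a replicate block.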

Additional observations from a re-analysis of the deposited data

Results flagged for a closer look

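A single library stood apart from the other 3 in 2 of the 64 groups of 4 library values that rest on at least 20 UMIs, at Dixon's critical value of 0.829. Chance flags about 1 in 20 groups. One was Thrb in RT-like cells, at 37.8 CPM in control 1 and between 7.52 and 12.4 CPM in the others. The other was Insr in interstitial stroma-like cells, at 37.1 CPM in control 1 and between 22.9 and 24.2 CPM in the others.

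Barcodes outside the range of 1000 to 4500 detected genes also held receptor UMIs, 2414 below the range and 35245 above it, beside the values of retained cells. Above the range Fshr had 821 UMIs against 471 in retained cells (3.74 against 3.01 CPM) and Esr2 384 against 153 (1.75 against 0.978 CPM). Lhcgr had 406 UMIs above the range and 492 in retained cells (1.85 against 3.15 CPM), and Prlr 2235 and 5632 (10.2 against 36 CPM). Most UMIs of Fshr and Esr2 thus lay outside the cells that were assigned to classes, and the classes of those barcodes were not analysed here.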

How the results depend on the processing

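Of 122 counts of calls under the alternatives, 62 equalled the count reported, 106 (these included) lay within 1.5 times of it, 10 lay above that range and 6 below, and an equal count need not hold the same genes. Receptors past the threshold ranged from 3 to 6 in the RT-like comparison (4 reported), from 5 to 6 in the Leydig-like comparison (5) and from 38 to 43 for receptors higher in a class (42), and 8 to 9 of the 9 leading classes were kept. In the SV Sertoli-like comparison the receptors past the threshold went from 1 to 2 without the filter and to 0 in cells below 10% mitochondrial UMIs, was 1 without integration (Fshr in place of Nr3c1), and ranged from 0 to 1 when a library was left out (0 without control 2 and without Sox17-cKO 2). List genes past the threshold in that comparison went from 20 to 13 below 10% mitochondrial UMIs, and from 6 to 20 when a library was left out. List genes called between genotypes went from 0 to 3 without the filter, 1 below 10% mitochondrial UMIs, 1 with the receptors kept among the variable genes, 1 with DESeq2 and 1 to 3 when a library was left out. The log2 difference of Insr in SV Sertoli-like cells changed sign without control 1 (-0.1), without control 2 (-0.01) and without Sox17-cKO 1 (-0.05), was 0.28 without Sox17-cKO 2, 0.67 below 10% mitochondrial UMIs (adjusted p = 0.17) and 0 at resolution 0.8, and did not pass the threshold under these settings. Insr in Sertoli-like cells against the other classes changed sign below 10% mitochondrial UMIs (-0.17). The cause was not tested. Fits without control 1 or below 10% mitochondrial UMIs, both without the filter, were added for Fshr after seeing the data. Over all genes, 6 were called between genotypes, against 153 without the filter, 106 to 177 with a library left out (the lone library is assumed to vary like the others), 16 below 10% mitochondrial UMIs, 4 without integration or without the highest Scrublet scores, 9 with receptors kept and 25 with DESeq2.

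With the replicate block, 344 genes and 4 list genes (Sult1e1, Sgk1, Thrsp and Tsc22d3, all in RT-like cells) were called between genotypes, and 0 receptors. Same-numbered libraries deviated together with r from 0.0326 to 0.666 over 13 classes, above 0.1 in 12, and shared a Cell Ranger version (6.0.2 for replicate 1, 6.1.2 for replicate 2). No label names a common day, batch or litter and there are only 2 pairs, so whether the numbers pair the libraries is unclear, and the blocked values stand beside the unblocked ones.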
